A study of Mus musculus with 2 samples.

Results

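The mitochondrial ribosomal proteins were taken as all gene symbols that begin with Mrpl or Mrps and go on with a number, which gave 76 of the 23167 symbols in the deposited tables, 47 of the large subunit (Mrpl) and 29 of the small subunit (Mrps). They were compared between naive CD4 T cells, the resting precursors of helper T cells, and naive CD8 T cells, the resting precursors of cytotoxic T cells. Both populations were sorted by FACS from spleen and lymph nodes of Foxp3-GFP mice on a C57/BL6 background as CD62L-high, CD44-low, CD25- and Foxp3-GFP- cells, with no treatment named; the sources used here do not give age or whether animals were pooled. Ribosomal RNA was removed from total RNA, and 1 SOLiD low-input whole-transcriptome library was sequenced per cell type, so that no difference has a replicate check and no test between the cell types was possible. Values are RPKM, reads scaled by gene length and by the library's total. A fold is the ratio of the deposited RPKM of CD4 to that of CD8, with a 95% interval (exact, Clopper-Pearson) computed from whole reads recovered from the RPKM; the interval covers counting error only and compares 2 libraries.

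The mitochondrial ribosome translates the few messenger RNAs encoded in mitochondrial DNA, all of which specify membrane subunits of the oxidative phosphorylation complexes. Its RNA comes from the mitochondrial genome, while its proteins are encoded in the nucleus, made in the cytosol and imported. Some of these proteins descend from those of the bacterial ribosome, and others were added in mitochondria. Naive T cells are quiescent, and mitochondrial translation is known to be needed for their later proliferation and effector function.

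Promoters of 5 of these genes are shown because the results below turn on them. Mrps36 and Mrpl33 were among the 3 with the largest log2 difference toward CD8, Mrpl27 and Mrpl10 had the largest differences toward CD4, and Mrpl46 starts 42 bases from another gene of the family, Mrps11, on the other strand. The sequences are the 250 bases before the transcription start, 5′ to 3′ on the gene's strand, from RefSeq on build GRCm38.p6. The RPKM were made on mm9, and the coordinates apply to GRCm38.p6 alone. Capitals mark matches on either strand to 3 short motifs, GCGCATGC (core of the NRF1 site), CCGGAAG (core of the site of ETS factors, which include GABP) and AAGATGGCG (core of the YY1 site); the stretches of Mrps36 and Mrpl46 hold none of the 3.
Mrps36, chr13:100744660-100744909, minus strand: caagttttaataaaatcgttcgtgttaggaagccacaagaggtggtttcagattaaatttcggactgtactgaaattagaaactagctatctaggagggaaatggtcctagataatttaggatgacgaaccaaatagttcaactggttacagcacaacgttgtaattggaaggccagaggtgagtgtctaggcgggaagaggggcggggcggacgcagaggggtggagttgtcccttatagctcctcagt
Mrpl33, chr5:31613701-31613950, plus strand: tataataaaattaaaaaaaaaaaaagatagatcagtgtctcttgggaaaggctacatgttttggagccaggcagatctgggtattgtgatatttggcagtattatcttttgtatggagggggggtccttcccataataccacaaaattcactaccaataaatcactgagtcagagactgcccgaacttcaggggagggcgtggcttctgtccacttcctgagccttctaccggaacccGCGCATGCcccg
Mrpl27, chr11:94653541-94653790, plus strand: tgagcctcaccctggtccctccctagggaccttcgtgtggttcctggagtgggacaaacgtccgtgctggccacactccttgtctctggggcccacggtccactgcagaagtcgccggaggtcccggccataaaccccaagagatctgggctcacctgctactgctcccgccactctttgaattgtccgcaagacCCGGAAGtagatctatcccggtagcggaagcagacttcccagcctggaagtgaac
Mrpl10, chr11:97041332-97041581, plus strand: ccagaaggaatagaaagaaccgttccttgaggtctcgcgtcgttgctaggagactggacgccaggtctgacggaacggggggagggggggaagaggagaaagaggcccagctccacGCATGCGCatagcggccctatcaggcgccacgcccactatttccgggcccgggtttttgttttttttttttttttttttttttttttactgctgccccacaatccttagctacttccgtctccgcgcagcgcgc
Mrpl46, chr7:78783090-78783339, minus strand: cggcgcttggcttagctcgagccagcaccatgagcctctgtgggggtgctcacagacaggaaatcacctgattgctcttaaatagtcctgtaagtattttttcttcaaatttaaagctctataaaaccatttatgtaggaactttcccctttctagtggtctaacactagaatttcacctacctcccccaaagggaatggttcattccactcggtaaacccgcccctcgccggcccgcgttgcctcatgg

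Promoter sequences were at hand for 67 of the 76 genes. In windows of 300 bases, 250 before the start and 50 after it, the ETS core occurred in 24 of the 67 (35.8%), against 9.93% of all promoters and 22.9% of those of genes compared here. The NRF1 core occurred in 8 of the 67 (11.9%), against 3.05% of all promoters and 6.91% of those of compared genes. The YY1 core also occurred in 8 (11.9%), against 1.64% and 4.17%. At least 1 of these 3 motifs was in the window of 34 genes, and Mrpl17, Mrpl22, Mrpl33 and Mrps18b held both the NRF1 and the ETS core; the ETS core of Mrpl33 reaches past the stretch printed above. The GC box GGGCGG was in 33 windows (49.3%), against 38.2% of all promoters and 70.1% of those of compared genes. TATAAA was in 5 windows (7.46%), against 15.7% and 8.04%. Some of these motifs can share bases, and a match describes letters in the window only. Genes with a motif lay at both ends of the CD4 to CD8 range: Mrpl33 and Mrpl10 both held the NRF1 core, and the ETS core was in Mrpl34 and Mrpl52, higher in CD8, as well as in Mrpl27 and Mrpl18, higher in CD4. RefSeq placed 25 of the 67 genes head to head with a neighbour whose start lies within 1000 bases, and the share over all genes was not computed. Mrpl46 and Mrps11 are such a pair, with 23.9 and 12.9 RPKM in CD4 and 24.2 and 14.6 RPKM in CD8. Their exons overlap each other, over 12.2% of the bases of Mrpl46 and 8% of those of Mrps11.

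Library totals of 24741945 reads in CD4 and 23853921 reads in CD8 were inferred from the RPKM. Lineage markers followed the labels, with Cd4 at 305 RPKM in CD4 against 8.89 RPKM in CD8, and Cd8a at 2.5 RPKM in CD4 against 518 RPKM in CD8. All 6 pan T cell markers were expressed, with summed levels of 2081 RPKM in CD4 and 2027 RPKM in CD8. Of 6 NK cell markers, 5 were compared, and all 5 were lower in CD4, with 4 at least 2-fold higher in CD8. The 5 summed to 46 RPKM in CD4 and 441.6 RPKM in CD8. Nkg7 had 1.75 RPKM in CD4 against 267 RPKM in CD8, and Klrb1c had 0.0308 RPKM against 1.36 RPKM. Ncr1, which defines NK cells and was not compared, had 0.111 RPKM in CD4 and was listed at 0 in CD8. The B cell marker Cd79b had 2.14 RPKM in CD4 against 28.8 RPKM in CD8. The globins Hbb-b1, Hba-a1 and Hba-a2 and the B cell markers Ms4a1, Cd79a and Pax5 were all listed under 1 RPKM in both libraries. Reads of Rn45s, the ribosomal RNA precursor, made up 0.357% of the CD4 library and 3.08% of the CD8 library. The part of other cells and of Rn45s in the results below was not tested, beyond leaving Rn45s out of the totals.

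Every one of the 76 genes was expressed in both cell types. Each had at least 3.64 RPKM in CD4 and 3.4 RPKM in CD8, values that belong to Mrps25 in both libraries. The median level was 20.6 RPKM in CD4 and 23.3 RPKM in CD8, against medians of 14.1 RPKM in CD4 and 13.4 RPKM in CD8 over the 10228 compared genes, those with 1 RPKM or more in at least 1 library. The genes covered a 30.3-fold range of levels in CD4 and a 32.9-fold range in CD8, and 56 of them lay between 10 and 60 RPKM in both libraries. Transcript levels within the family were thus far from equal in either cell type. The lowest value, that of Mrps25, is uncertain. The gene shares 69.8% of its exon bases with Nr2c2, and Gm42933 is 98% identical to it over 2070 bases. The 42 genes without overlap or copies (defined below) ran from 4.75 to 57.5 RPKM in CD4 and 4.92 to 87.1 RPKM in CD8. Reads per gene ran from 94 to 4410 in CD4 (median 547.5) and from 137 to 4920 in CD8 (median 651), and 74 genes had 100 reads or more in both. Together the genes took 0.25% of all reads in CD4 (Wilson 95% interval 0.248 to 0.252) and 0.279% in CD8 (0.277 to 0.282).

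Mrpl24, a protein at the polypeptide exit tunnel, had the highest level, with 110.5 RPKM in CD4 and 111.6 RPKM in CD8. Next by mean level was Mrpl30, a large-subunit protein with a bacterial homologue, with 67.9 RPKM in CD4 and 100.7 RPKM in CD8. Mrpl33, a small protein of the large subunit, had 50.7 RPKM in CD4 and 87.1 RPKM in CD8. The first of these was alike in both libraries, while the other two were higher in CD8. Mrps16, the most abundant small-subunit transcript, had 63.3 RPKM in CD4 and 73.3 RPKM in CD8. Mrpl9 had 57.5 RPKM in CD4 and 63.6 RPKM in CD8. Mrpl23, which like Mrpl24 lies at the exit tunnel, had 58.7 RPKM in CD4 and 54.3 RPKM in CD8. The values of Mrpl23, Mrpl30 and Mrps16 are uncertain. Mrpl23-ps1 is 100% identical to Mrpl23 over 540 bases. Transcripts at least 95% identical over 250 bases or more come from 2 other genes for Mrpl30 and 1 for Mrps16. The order of levels was nearly shared by the libraries: over the 76 genes log2 RPKM in CD4 and CD8 were correlated with r = 0.953 (Pearson) and rho = 0.953 (Spearman), against 0.95 and 0.953 over all compared genes. These are correlations across genes within 1 pair of libraries, and genes are not replicates.

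**Figure D1:**
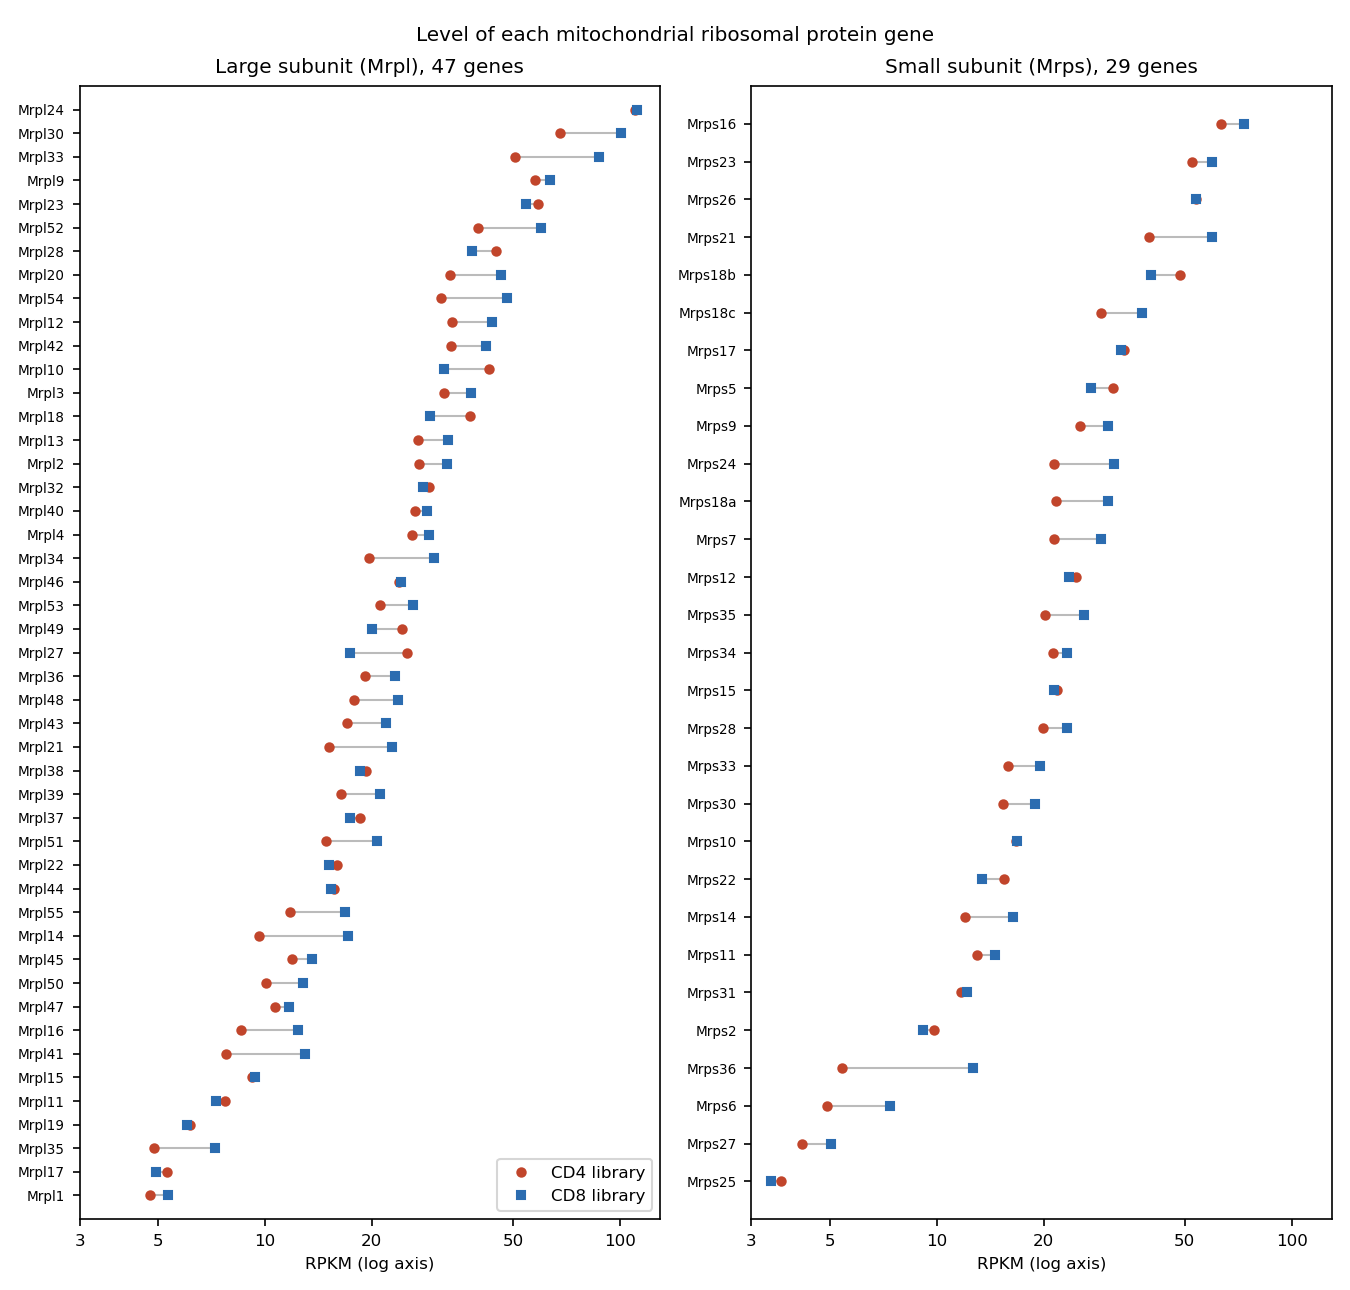
Level of each gene in RPKM (log axis), with red circles for the CD4 library and blue squares for the CD8 library, ordered by mean level within the large subunit (left) and the small subunit (right). Levels run from Mrps25, with 3.64 RPKM in CD4 against 3.4 RPKM in CD8, to Mrpl24, with 110.5 RPKM in CD4 against 111.6 RPKM in CD8, and most pairs of points lie close together.

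Most of the genes had a somewhat lower deposited RPKM in CD4 than in CD8, by amounts that were small for single genes. On the scale log2(RPKM + 1), CD4 minus CD8, the median of the 76 genes was -0.21, against 0.08 over all compared genes, with 23 of the 76 above 0, against 59.5% of all compared genes, and 53 below 0, against 40.5%. In bulk libraries like these, fewer cells that express a gene and less of its RNA per cell cannot be told apart. The medians of the 47 large-subunit genes, -0.24, and of the 29 small-subunit genes, -0.21, were close to each other. The direction depends on how the libraries are scaled: rescaling each library's RPKM to a sum of 1000000 raised the median of all compared genes by 0.21 and put the median of the 76 genes at -0.0012, with 38 of them below 0 and the small subunit at 0.0023. Relative to the median of all compared genes the family stood at -0.29 as deposited and at -0.29 after that rescaling. Leaving the reads of Rn45s out of the totals gave a median of -0.17, with 49 genes below 0.

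Few members differed much. On the log2(RPKM + 1) scale no gene was at least 2-fold higher in CD4, a size that 2.41% of all compared genes reached, and 1 gene, Mrps36, was at least 2-fold higher in CD8, against 3.07% of compared genes. At 1.5-fold on that scale no gene was higher in CD4 (background 8.07%) and 5 were higher in CD8 (background 7.47%), namely Mrps36, Mrpl14, Mrpl33, Mrpl41 and Mrpl54. In the ratio of the deposited RPKM, with nothing added, Mrpl34 (1.52, CD8 over CD4), Mrps6 (1.51), Mrps21 (1.51) and Mrpl52 (1.51) were past 1.5-fold toward CD8 as well. That ratio lay within 1.2-fold either way for 36 genes, and the share of all compared genes within that range was not computed. The counting interval of the fold was above 1, toward CD4, for 8 genes (background 44.6%), below 1, toward CD8, for 42 genes (background 26.7%), and spanned 1 for 26 genes. An interval that spans 1 does not show that the levels were equal.

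**Figure D2:**
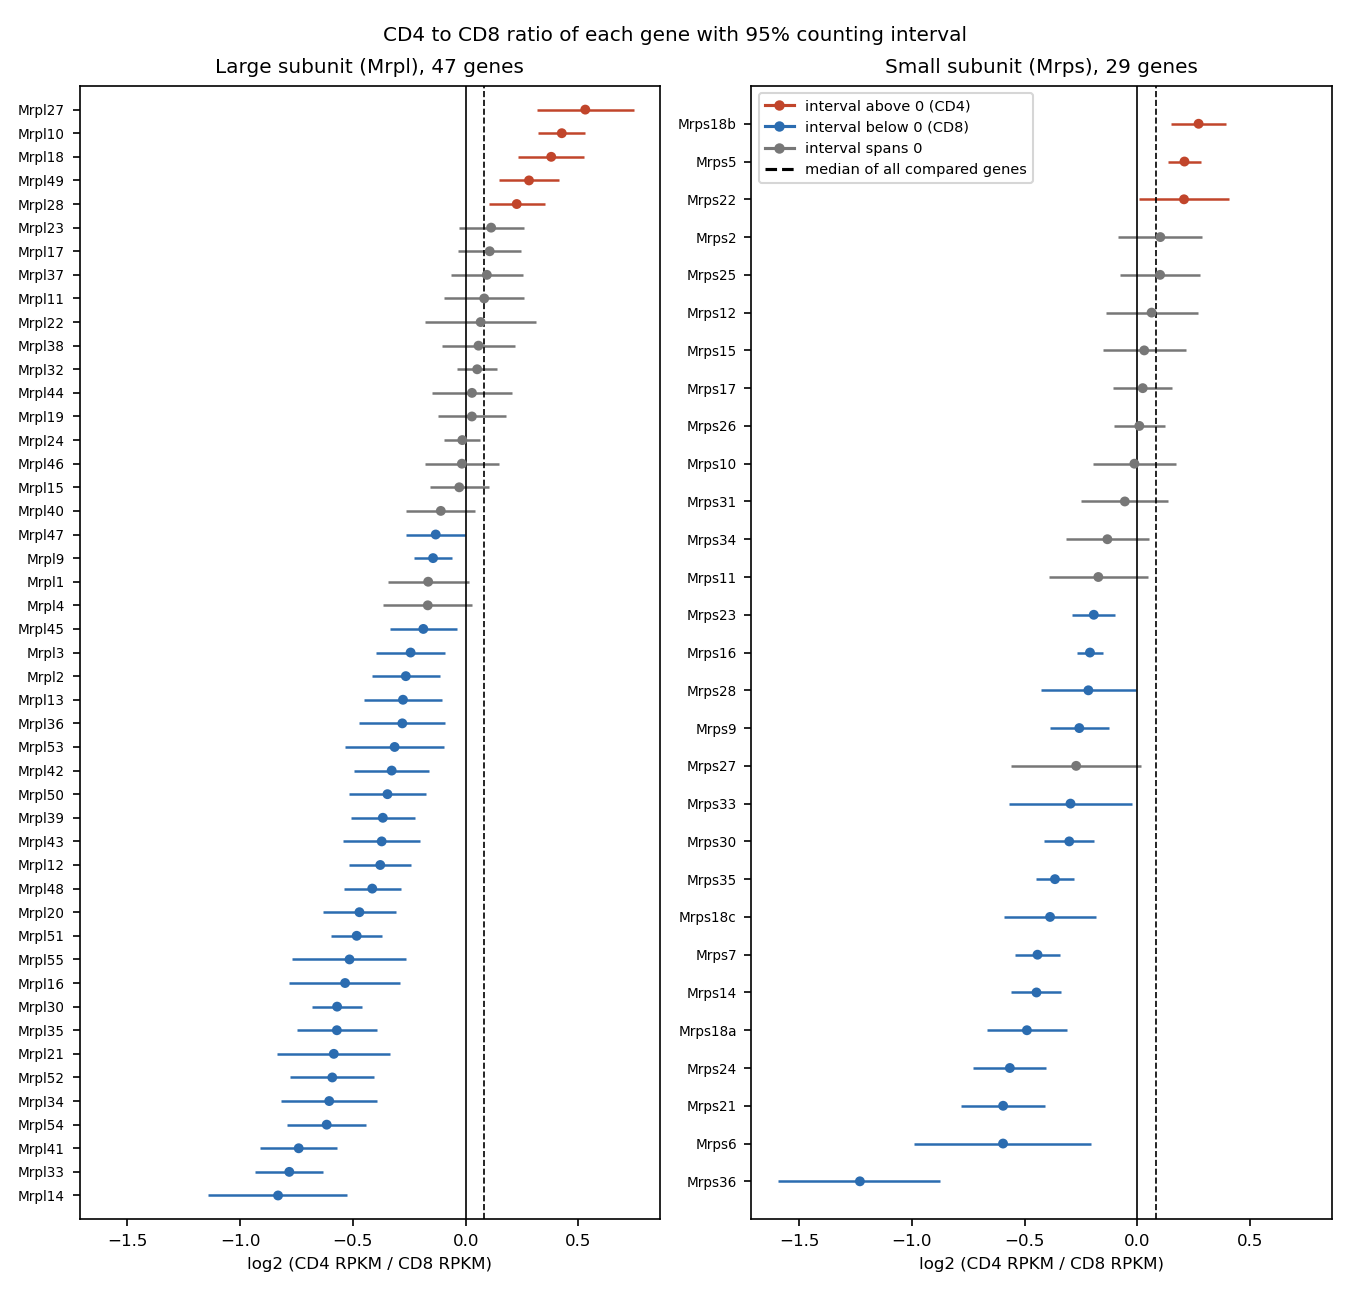
Log2 of the ratio of deposited RPKM, CD4 over CD8, for each gene with its 95% counting interval, for the large subunit (left) and the small subunit (right); red marks intervals above 0, blue intervals below 0 and grey intervals that span 0, and the dashed line is the median log2(RPKM + 1) difference of all compared genes. As deposited, 42 intervals lie on the CD8 side and 8 on the CD4 side, but rescaling the libraries to equal sums moves the median gene of the family to -0.0012.

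Mrps36 had 5.39 RPKM in CD4 (95 reads) and 12.7 RPKM in CD8 (215 reads), a CD4 to CD8 ratio of 0.426 (0.331 to 0.545). Its protein, first named as a small-subunit protein, is now known as a subunit of the 2-oxoglutarate dehydrogenase complex of the citric acid cycle. The value is uncertain, because 4 other annotated genes, among them the pseudogenes Mrps36-ps1 and Mrps36-ps2, have transcripts at least 95% identical to it over 250 bases or more, and the sources used here do not say how such reads were counted. Without Mrps36, Mrps30 and Mrps18a, the last 2 of which sit in the large subunit of the mammalian mitochondrial ribosome despite their symbols, the median of the remaining 26 small-subunit genes was -0.18.

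Mrpl14, at the face where the subunits meet, had 9.63 RPKM in CD4 and 17.1 RPKM in CD8, a ratio of 0.562 (0.453 to 0.694), and 11.2% of its exon bases overlap those of Tmem63b. Mrpl33 had the ratio 0.581 (0.524 to 0.645) from 579 reads in CD4 and 960 reads in CD8. Mrpl41, a protein found only in mitochondrial ribosomes, had 7.76 RPKM in CD4 and 13 RPKM in CD8, a ratio of 0.599 (0.532 to 0.673), and has 1 near-identical copy. Among these 3 genes the highest upper end of an interval was that of Mrpl14, 0.694. Mrpl54, of the stalk base, had 31.3 RPKM in CD4 and 48 RPKM in CD8, a ratio of 0.652 (0.578 to 0.736). Mrps21 had 39.5 RPKM in CD4 and 59.7 RPKM in CD8, a ratio of 0.662 (0.581 to 0.753), with 1 near-identical copy. Mrpl34 had 19.6 RPKM in CD4 and 29.9 RPKM in CD8, a ratio of 0.657 (0.568 to 0.761). These genes, with Mrpl52, which had 39.9 RPKM in CD4 against 60.2 RPKM in CD8, form a group of 8 with the largest differences toward CD8, and 7 of the 8 are shorter than the family's median length of 1055.5 bases, Mrpl41 being the exception at 2421 bases.

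Mrpl27 stood at the other end. Its protein reaches the peptidyl transferase centre, where peptide bonds form, and its transcript had 25.1 RPKM in CD4 (451 reads) and 17.4 RPKM in CD8 (301 reads), a CD4 to CD8 ratio of 1.44 (1.25 to 1.68). It has 1 near-identical copy, Gm6304. Mrpl10, which anchors the stalk that recruits translation factors, had 42.9 RPKM in CD4 and 31.9 RPKM in CD8, a ratio of 1.34 (1.25 to 1.45). Mrpl18, of the central protuberance, had 37.9 RPKM in CD4 and 29.1 RPKM in CD8, a ratio of 1.3 (1.18 to 1.44). Exons of Mrpl10 and Mrpl18 overlap those of Gm11574 and Tcp1 over 14.1% and 10.1% of their bases, and without a stated strand setting such reads cannot be told apart. The other 5 genes toward CD4 had smaller ratios. Mrpl49 had 24.4 RPKM in CD4 and 20.1 RPKM in CD8, a ratio of 1.22 (1.11 to 1.33). Mrps18b had 48.4 RPKM in CD4 and 40.1 RPKM in CD8, a ratio of 1.21 (1.11 to 1.31). It shares 30.5% of its exon bases with Gm16279 and has 1 near-identical copy. Mrpl28, Mrps5 and Mrps22 had ratios of 1.17, 1.16 and 1.15, and the interval of Mrps22 ended at 1.01, close to 1.

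Functional regions of the ribosome did not share a single ratio. Their medians and interval sides, here and in the next paragraph, rest on the deposited scaling. Rescaling to equal sums raised the median of all compared genes by 0.21. Each gene was also measured from the median of compared genes of like length, in 10 groups. The medians were then -0.15 at the stalk, -0.086 at the peptidyl transferase centre and -0.080 in the central protuberance. For the exit tunnel and the decoding list of the next paragraph they were 0.0011 and -0.048. The medians that follow are without this step. At the stalk and the factor-binding site, Mrpl10 was higher in CD4, while Mrpl12, which binds translation factors, had 33.6 RPKM in CD4 and 43.7 RPKM in CD8, a ratio of 0.769 (0.699 to 0.846); the median of the 5 genes was -0.30. Around the peptidyl transferase centre Mrpl27 was toward CD4, and of the other 4 genes Mrpl2, Mrpl3 and Mrpl16 had intervals toward CD8 while that of Mrpl4 spanned 1; the median of the 5 was -0.24. In the central protuberance, where mammalian mitochondrial ribosomes carry a transfer RNA, the median of 7 genes was -0.11, with Mrpl18 toward CD4 and Mrpl48, Mrpl52 and Mrpl55 toward CD8.

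The 7 exit-tunnel genes had the smallest spread of the lists of regions, with a standard deviation of 0.16. Their median as deposited was -0.015. No interval was toward CD4 (background 44.6%) and 3 were toward CD8 (Mrpl39, Mrpl45 and Mrpl47, background 26.7%). Mrpl45, which ties the ribosome to the inner membrane, had 11.9 RPKM in CD4 and 13.6 RPKM in CD8, a ratio of 0.878 (0.792 to 0.973). In the small subunit the 6 genes of the decoding site and the messenger RNA path had a median of -0.051. Among them Mrps5 was toward CD4, Mrps7 and Mrps24 were toward CD8, and Mrps12, of the decoding centre, had 24.7 RPKM in CD4 and 23.6 RPKM in CD8, a ratio of 1.04 (0.907 to 1.2). The 3 homologues of bacterial protein S18 parted: Mrps18b was toward CD4, while Mrps18a had 21.7 RPKM in CD4 and 30.4 RPKM in CD8, a ratio of 0.712 (0.63 to 0.804), and Mrps18c had 29 RPKM in CD4 and 37.9 RPKM in CD8, a ratio of 0.764 (0.663 to 0.88). These 3 proteins occupy different places in the mitochondrial ribosome. The values of 2 of them are uncertain. Mrps18b shares 30.5% of its exon bases with Gm16279 and has 1 near-identical copy, and Mrps18c shares 23.2% with Gm43511.

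Proteins with bacterial homologues and those found only in mitochondria were also set side by side. In the large subunit the median was -0.15 over 30 genes with a bacterial homologue. By interval 16 of them were toward CD8 (background 26.7%) and 4 toward CD4 (background 44.6%). Over 18 mitochondria-specific genes, Mrps30 included, the median was -0.31, with 12 toward CD8 and 1 toward CD4. In the small subunit the order was the other way round, with -0.21 over 16 genes with a bacterial homologue and -0.13 over 9 mitochondria-specific genes. Mrps18a, Mrps18b and Mrps36 were in none of the 4 lists, although Mrps18c was counted among the genes with a bacterial homologue. All 4 medians were below that of all compared genes, 0.08, on the deposited scaling, and no test between the lists was made.

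The members are short genes, and short genes as a whole had lower values in CD4. The length behind the RPKM was 1055.5 bases for the median member, from 405 to 6709 bases, against 2733 bases for the median compared gene. When compared genes were divided into 10 equal groups by length, 45 of the 76 fell in the 2 shortest. The median log2 difference of all compared genes was -0.15 in the shortest group and 0.16 in the longest. Across the 76 genes log2 length and log2 difference were correlated with r = 0.28 (Pearson) and rho = 0.34 (Spearman), against 0.14 and 0.19 across all compared genes, with both quantities taken from the same 2 libraries. The 38 shorter members had a median of -0.27 and 30 of them were below 0. The 38 longer members had a median of -0.13 and 23 below 0. Of all compared genes, the share below 0 was 63.9% in the shortest length group, 52.6% in the second and 27.6% in the longest. Measured from the median of its own length group, the median member stood at -0.17 and 55 of the 76 were below it. Length also went with level, with an r of -0.53 across the 76 genes, while level and difference had an r of -0.0029.

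**Figure D3:**
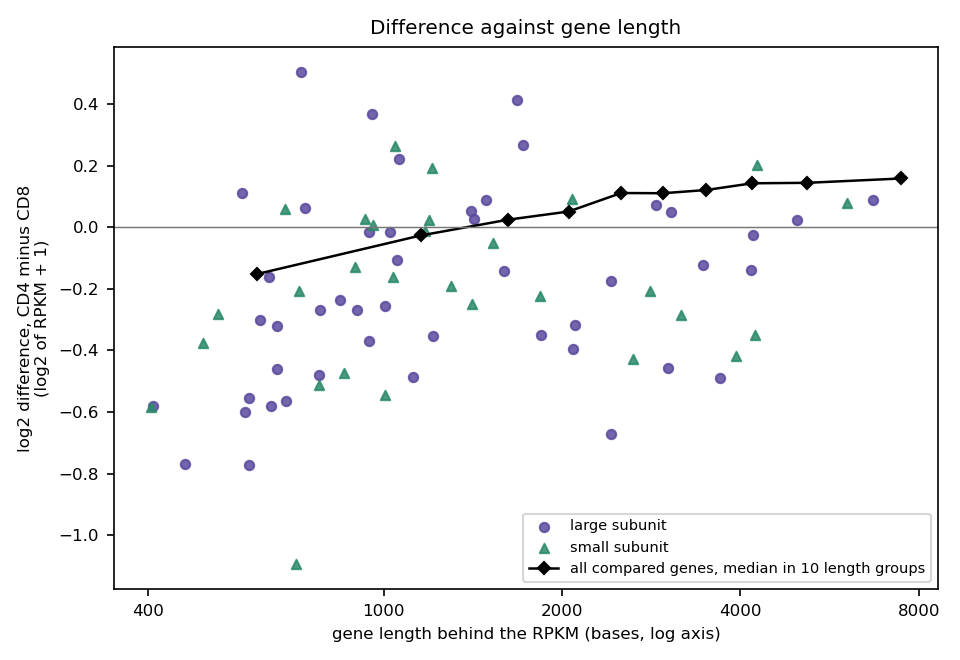
Log2 difference in log2(RPKM + 1), CD4 minus CD8, against gene length in bases (log axis), with circles for large-subunit and triangles for small-subunit genes and black diamonds for the median of all compared genes in 10 length groups. The diamonds climb from -0.15 to 0.16, and 55 of the 76 genes lie below the median of their own length group; with the libraries rescaled to equal sums the median of the 76 genes is -0.0012 in place of -0.21.

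Counting of shared sequence could touch many of these genes. Exons of 17 genes overlap another annotated gene over 10% or more of their bases, and 19 genes have a near-identical transcript elsewhere, 34 genes in all. The shares over all genes were not computed, so these counts do not set the family apart. The other 42 had a median of -0.20, with 30 below 0, and the 34 had a median of -0.22, with 23 below 0. The difference from the median of all compared genes was thus nearly the same with and without them. Mrpl24, the highest gene, is among the 34, since 26.3% of its exon bases overlap Rrnad1.

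Ribosomal proteins of mitochondria that carry other symbols lay on both sides of 0. The 6 genes had a median of 0.079 as deposited, 0.037 from the medians of the length groups and -0.0012 when the libraries were centred on the median gene. Ict1, a peptidyl-tRNA hydrolase built into the large subunit, had 68.9 RPKM in CD4 and 81.8 RPKM in CD8, a ratio of 0.843 (0.78 to 0.91). Aurkaip1 had 46.6 RPKM in CD4 and 47.9 RPKM in CD8, a ratio of 0.972 (0.901 to 1.05). Dap3, a GTP-binding small-subunit protein, was on the CD4 side, with 17.1 RPKM in CD4 and 13.4 RPKM in CD8, a ratio of 1.27 (1.19 to 1.36), and Gadd45gip1 on the CD8 side, with 15.7 RPKM in CD4 and 20.1 RPKM in CD8, a ratio of 0.783 (0.72 to 0.851). By interval 3 of the 6 were toward CD4 (background 44.6%) and 2 toward CD8 (background 26.7%).

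The factors that work on the ribosome were described in the same way. Of 12 mitochondrial translation factors 6 had an interval toward CD4, against 44.6% of all compared genes, and 6 spanned 1. None was toward CD8, against 26.7%. Their median was 0.15 as deposited and 0.055 when each gene was measured from the median of its length group, with 5 of the 12 below. Their difference from the ribosomal proteins was not tested. Tufm, the elongation factor that brings transfer RNAs, had 31 RPKM in CD4 and 32.1 RPKM in CD8, a ratio of 0.966 (0.896 to 1.04). Gfm1, the factor for translocation, had 22 RPKM in CD4 and 17.5 RPKM in CD8, a ratio of 1.26 (1.18 to 1.34). Taco1, a translational activator of the messenger RNA for cytochrome c oxidase subunit I, had 17.5 RPKM in CD4 and 12.2 RPKM in CD8, a ratio of 1.44 (1.26 to 1.64). Mtif3, an initiation factor, had 8.35 RPKM in CD4 and 6.36 RPKM in CD8, a ratio of 1.31 (1.2 to 1.44). Only 2 of the 12 were in the 2 shortest length groups, against 45 of the 76 ribosomal protein genes.

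Assembly factors and enzymes that modify mitochondrial ribosomal RNA were split. Of 20 genes, 7 had an interval toward CD4 (background 44.6%) and 11 toward CD8 (background 26.7%), and the median was -0.20, or -0.26 from the medians of the length groups. Noa1, a GTPase needed for ribosome assembly, had 6.14 RPKM in CD4 and 11.1 RPKM in CD8, a ratio of 0.553 (0.484 to 0.632). Mtg1, another GTPase of large-subunit assembly, had 7.17 RPKM in CD4 and 11 RPKM in CD8, a ratio of 0.654 (0.56 to 0.763). The 2 most abundant parted: the helicase Dhx30 had 48.9 RPKM in CD4 and 39.5 RPKM in CD8, a ratio of 1.24 (1.19 to 1.29), and Rbfa, a small-subunit maturation factor, had 34.5 RPKM in CD4 and 45.3 RPKM in CD8, a ratio of 0.761 (0.704 to 0.824).

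Genes for mitochondrial transcription and the upkeep of mitochondrial DNA and RNA had a median of 0.19. Of 14 genes, 8 were toward CD4 by interval (background 44.6%), 2 were toward CD8 (background 26.7%) and 10 were above 0 (background 59.5%). Measured from the medians of the length groups the median was 0.071, with 6 of the 14 below. Polg, the catalytic subunit of the mitochondrial DNA polymerase, had 61.8 RPKM in CD4 and 33.2 RPKM in CD8, a ratio of 1.86 (1.79 to 1.94), the largest ratio in either direction in the 5 lists of partner genes. Tfb2m, a transcription factor of the mitochondrial promoters, had 10.5 RPKM in CD4 and 15.4 RPKM in CD8, a ratio of 0.682 (0.615 to 0.756). Hsd17b10, a subunit of the mitochondrial RNase that frees transfer RNAs, had 37.5 RPKM in CD4 and 40.7 RPKM in CD8, a ratio of 0.922 (0.838 to 1.02). These rested on the deposited scaling like the rest.

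Of 12 nuclear regulators of mitochondrial biogenesis 11 were compared, and Ppargc1a was listed at 0 in CD4 and at 0.0453 RPKM in CD8. Their median was 0.076, close to that of all genes, and -0.068 from the medians of the length groups. Of the 11, 4 had intervals toward CD4 (background 44.6%) and 4 toward CD8 (background 26.7%). Yy1 had 49.5 RPKM in CD4 and 51.7 RPKM in CD8, a ratio of 0.959 (0.93 to 0.988). Gabpb2, a partner of the ETS factor Gabpa, had 43.3 RPKM in CD4 and 39.5 RPKM in CD8, a ratio of 1.1 (1.07 to 1.13). Myc had 7.79 RPKM in CD4 and 10.7 RPKM in CD8, a ratio of 0.728 (0.644 to 0.823), and Ppargc1b had 2.6 RPKM in CD4 and 1.94 RPKM in CD8, a ratio of 1.33 (1.09 to 1.64).

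**Figure D4:**
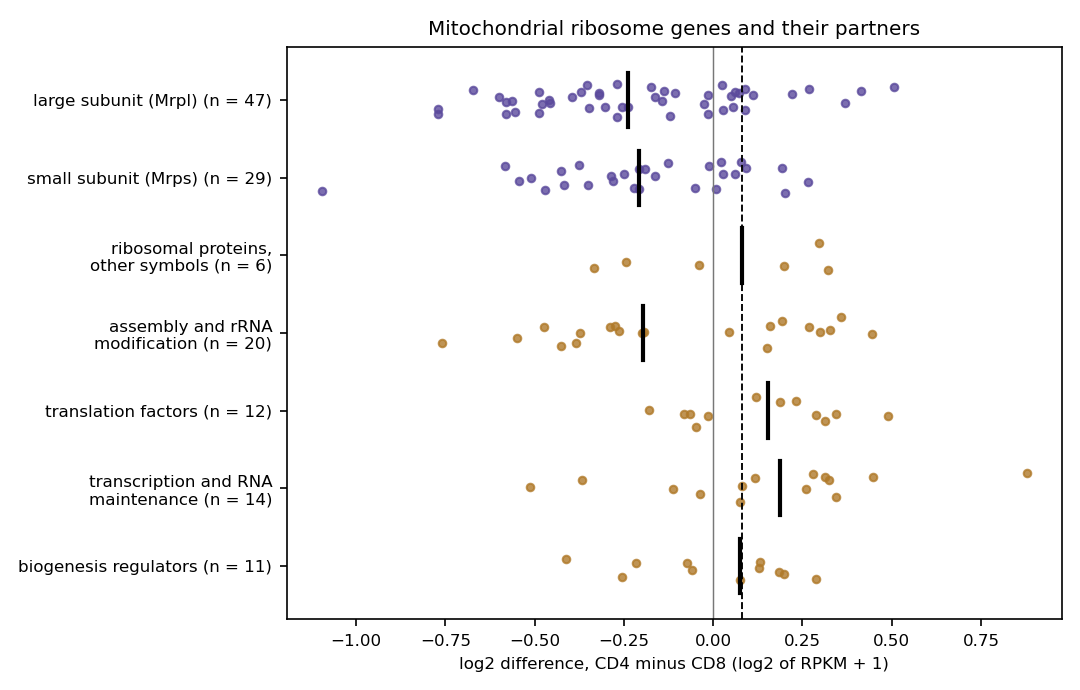
Log2 difference in log2(RPKM + 1), CD4 minus CD8, of each gene (points) with the median of each list (black bars), for the 2 subunits and for lists of partner genes; the dashed line is the median of all compared genes. As deposited the large and small subunits (medians -0.24 and -0.21) and the assembly factors (-0.20) lie left of 0, and the translation factors (0.15) and transcription genes (0.19) lie right of it; with the libraries rescaled to equal sums the medians are -0.031, 0.0023, 0.0036, 0.36 and 0.40 in the same order.

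The mitochondrial ribosome was last set beside the gene groups most like it. Cytosolic ribosomal protein genes, of which 85 of 88 were compared, had a median of -0.39, with 81 below 0 and 8 at least 2-fold higher in CD8. Nuclear genes of oxidative phosphorylation, of which 76 of 85 were compared, had a median of -0.29, with 62 below 0 and 4 at least 2-fold higher in CD8. Among all compared genes 40.5% lay below 0, and 3.07% reached a 2-fold size toward CD8. Toward CD4 that size was reached by 0 genes in each of these groups (background 2.41%). Both groups also held many short genes, 75 and 56 in the 2 shortest length groups. Measured from the median of each gene's length group, their medians were -0.29 and -0.19, beside -0.17 for the mitochondrial ribosomal protein genes. The 3 groups thus lay on the same side of the median gene, and no test of the differences between them was made. Their levels were far apart, with medians of 1193 RPKM in CD4 and 1564 RPKM in CD8 for the cytosolic ribosome, 56.7 RPKM in CD4 and 72.4 RPKM in CD8 for oxidative phosphorylation, and 20.6 RPKM in CD4 and 23.3 RPKM in CD8 for the mitochondrial ribosome.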

How the data were processed

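The deposited values are RPKM, 1 per gene symbol and library, as the authors' files give them. The submitters' processing notes name TopHat, HTSeq and mm9, with no versions; annotation, strand setting and the counting of multiply mapped reads are not stated. Each table had 26882 rows for 23167 symbols, and the 2597 symbols on more than 1 row (Mrpl1, Mrpl48 and Mrps10 among the members) were counted once. Whole reads came out for 12733 of 12735 genes above 0 in both libraries, at inferred totals of 24741945 (CD4) and 23853921 (CD8). A common multiple of reads and length cannot be read from RPKM, so the smallest length near an annotated one (GENCODE M21) was taken; this choice sets reads, lengths, length groups and intervals, but not the ratio of RPKM. It was the smallest possible length for 58 of the 76 members. Some multiples may be too high, since compared genes alone summed to 23918848 reads in CD8. In a simulated comparison of 13211 genes, reads were found for 92.2% and read ratios for 99.8%, and 95.8% of intervals held the true fold. The simulation took its lengths from the choice made here and drew reads with counting error alone. It therefore cannot check that choice, or whether the intervals hold under any other error.

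For genes with at least 1 RPKM in 1 or both libraries, 1 RPKM was added to each value as a pseudocount, which shrinks the difference of low genes, and the log2 value of CD8 was subtracted from that of CD4. An absolute value of 1 or more counted as 2-fold. The members, the lists and the naming rule (the 6 highest members, the 8 largest differences each way, up to 3 examples per region, 4 genes per partner list) were chosen with earlier results of these data known. Alternatives were other pseudocounts, filters, scalings, size rules and gene sets; those on length, Rn45s and overlapping genes were chosen after seeing the data. Python 3.11.15, pandas 2.3.3, scipy 1.17.1 and matplotlib 3.10.9 were used.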

Additional observations from a re-analysis of the deposited data

How the results depend on the processing

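No paired analysis was possible because there was 1 library per cell type. Of the results recomputed under each alternative, 5 changed sign, 18 moved further than 1.5 times (counts and shares) or than the typical counting error of a listed gene (medians), and 89 moved by less, though not all by little: the regulators' median, 0.076, was 0.0081 without the filter and with a filter of 5 RPKM, that of the transcription genes, 0.19, was 0.12 with that stricter filter, and members below 0 were 38 in place of 53 after rescaling to equal sums; the cause was not tested, except that the rules on size, filter and pseudocount move counts by construction. The share of all compared genes at least 2-fold different, 5.49%, was 8.7% and 1.94% with pseudocounts of 0.1 and 5 RPKM, 2.42% without the filter, 8.43% after rescaling to equal sums, 15.5% at 1.5-fold and 71.3% by counting interval. The count of members at least 2-fold higher in CD8, 1, was 0 with a pseudocount of 5 RPKM and 0 after rescaling to equal sums, 5 at 1.5-fold and 42 by counting interval; the count toward CD4, 0, was 8 by counting interval. Without members that overlap or resemble another gene 30 of 42 were below 0. Rescaling each library to a sum of 1000000 gave medians of -0.0012 for the 76 members, -0.031 for the large subunit, 0.0023 for the small subunit, 0.29 for ribosomal proteins under other symbols, 0.36 for translation factors, 0.0036 for assembly factors, 0.40 for transcription genes and 0.29 for regulators. Centring on the median gene gave -0.0012 for other symbols and -0.0047 for regulators, and leaving out symbols on more than 1 row gave -0.060 for regulators. Relative to the median of all compared genes the 76 members lay between -0.30 and -0.17 under these scalings, filters and pseudocounts and when measured from the length groups. The totals allow intervals of counting error only, and with 94 to 4920 reads per gene small ratios could not be told from 1 for 26 members; differences between animals, sorts or library preparations could not be measured.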
